A study of Homo sapiens with 6 samples.

Results

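Short-chain dehydrogenase/reductase (SDR) genes were followed in HaCaT cells, an established human keratinocyte line that became immortal spontaneously, with and without an edited SDR42E1 gene. The members are 49 genes chosen by symbol, SDR42E1 and 48 relatives, among 46287 rows of a table of raw read counts. All 49 were in the table, and the choice was made by name, with earlier results of these data known. Bulk RNA sequencing had been done on 3 libraries of wild-type control cells and 3 of SDR42E1 knockout cells (CRISPR/Cas9, labelled homozygous), all grown by the same protocol, with no treatment named. The study asked how loss of SDR42E1, put forward as a modulator of vitamin D levels, changes gene expression at large. The comparison made here asks whether related enzymes were higher where SDR42E1 was disrupted. The labels call the replicates biological and collected at the same time, but leave unsaid if each was its own culture and if the knockout is 1 clone or several, so p-values reflect only library-to-library spread, which may be technical.

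SDR enzymes share a nucleotide-binding fold and use NAD(H) or NADP(H) to oxidise hydroxyl groups or reduce carbonyl groups on small molecules. Members with different substrates switch steroid hormones on and off, interconvert retinol and retinal, shorten or elongate fatty acids and break down prostaglandins. In epidermis the family is known for retinoid control and lipid synthesis, and SDR42E1 has been linked to vitamin D. UGDH is a dehydrogenase of a separate family and was kept because the list names it.

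Libraries held 11504473 to 16928201 counts. All 10 keratinocyte markers were detected in both groups, with a summed level of 8055 to 8619 CPM (read counts scaled to the TMM-adjusted library size) in control and 10157 to 10732 CPM in knockout libraries. Of 7 fibroblast markers, 5 were under 1 CPM in control and 6 in knockout cells (summed level 4.30 to 6.19 and 1.12 to 2.13 CPM), and DCN and PDGFRA were at 0 in all libraries. The part of these marker shifts in the results was not tested. The melanocyte gene TYR was also at 0, and 4 of 6 melanocyte markers were under 1 CPM in either group. Above 1 CPM were MITF at 21.3 and 19.2 CPM and PMEL at 2.7 and 1.9 CPM (control and knockout means). Of 6 immune markers 5 were under 1 CPM in either group, with CD68 at 6.27 and 8.18 CPM. Of 5 endothelial markers 3 were under 1 CPM in control and 4 in knockout cells. CDH5 was at 2.04 and 1.46 CPM and VWF at 1.68 and 0.85 CPM. In bulk RNA, fewer cells with a transcript and less of it per cell cannot be told apart.

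SDR42E1 RNA was about halved and not lost. The 3 control libraries held 46.8, 47.6 and 48.8 CPM, and the 3 knockout libraries 23.2, 20.1 and 20.7 CPM. Every knockout library lay below every control library. Knockout over control, this is a log2 fold change of -1.16 with SE 0.08. The adjusted p = 2.69e-14 comes from the quasi-likelihood test of edgeR, with Benjamini-Hochberg adjustment over all genes, as for every adjusted p from edgeR here. SDR42E1 lies at 81988855 to 82011488 on the minus strand of chromosome 16 (GRCh38), and its 2 protein-coding transcripts in GENCODE have 3 and 4 exons. The sources used here do not give the site of the edit. A count over the whole gene does not test an edit that leaves the transcript in place.

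Among the relatives more genes fell than rose, 16 against 10 of 44 tested (36.4% and 22.7%, beside 25.8% and 24.6% of all genes). Rises of 1 or more on the log2 scale were seen in 0 of the 44. Only 1.91% of all genes passed with such a rise, so this count is near the share of all genes. Of the 49 genes, SDR42E1 included, 45 had enough counts to be tested. Of these, 10 were higher and 17 lower in the knockout at an adjusted p under 0.05, and 18 did not pass. Over all 12293 genes tested, 50.4% passed, 24.6% higher and 25.8% lower, so a passing gene is common in this comparison; among the tested SDR genes 22.2% were higher and 37.8% lower. Groups did not overlap in 31 of the 45 genes (68.9%), against 56.5% of all genes. Falls of at least 0.5 on the log2 scale were seen in 11 SDR genes (10 without SDR42E1) and rises of that size in 2, SDR16C5 and DHRS2. The same limits were met by 12.2% and 6.56% of all genes. Falls of at least 1 were seen in 3 members, SDR42E1, HPGD and HSD17B1, and rises of that size in 0 of 45, beside 5.23% and 1.91% of all genes. Of these 3, SDR42E1 is the edited gene, and HSD17B1 entered the test through its control libraries alone and so could pass only as lower. The median log2 fold change was -0.05 for the tested members and -0.004 for all genes, and the first moved to between -0.17 and -0.09 when any 1 library was left out.

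**Figure D1:**
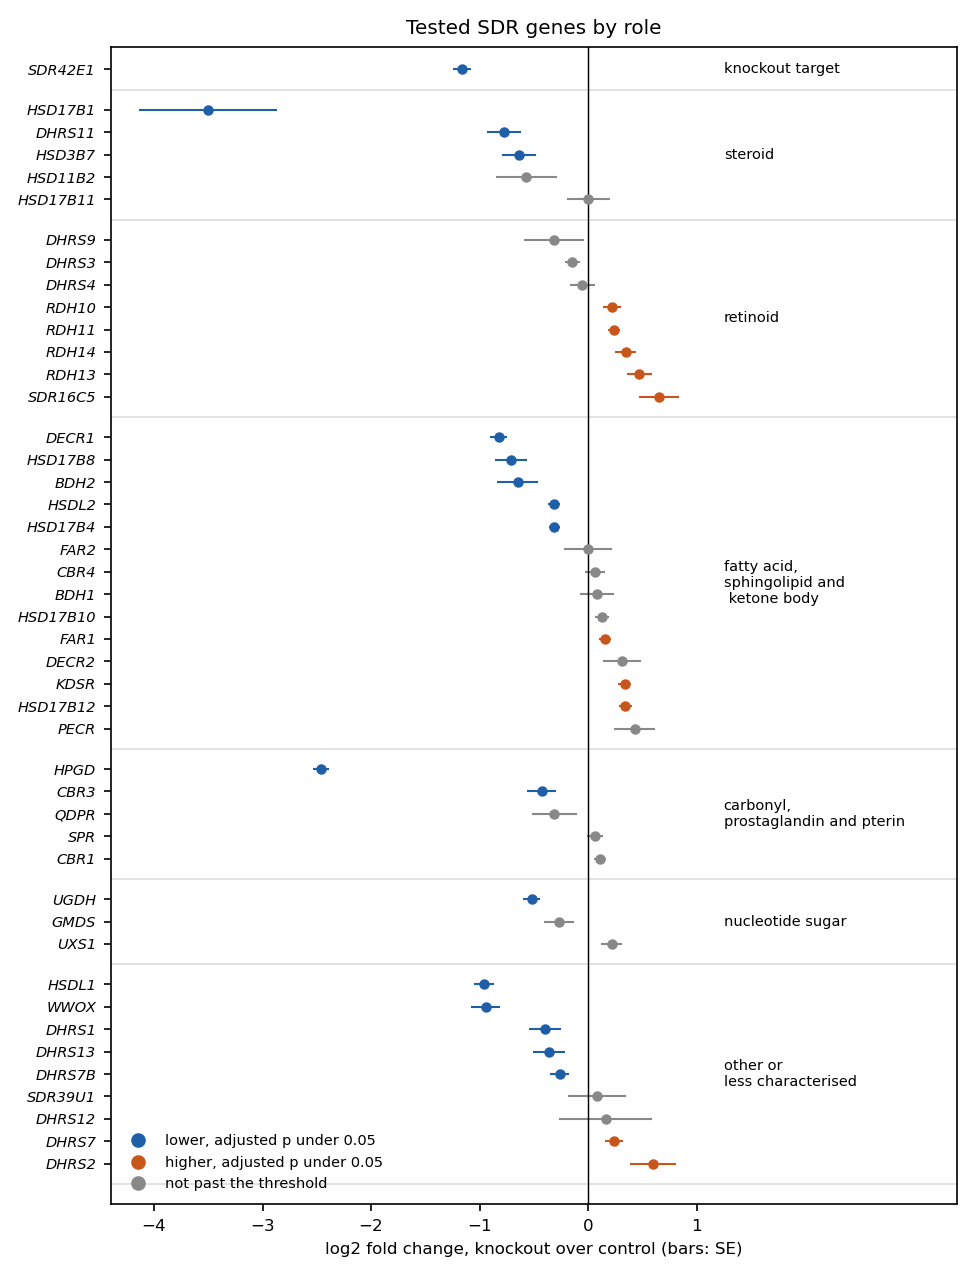
Log2 fold change of knockout over control (x axis, bars are SE) for the 45 tested genes, grouped by role (rows). Blue points were lower and orange points higher at an adjusted p under 0.05, and grey points did not pass; all 5 passing genes of the retinoid group lie to the right of 0 and all 3 of the steroid group to the left.

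Much of the excess of falls lay on chromosomes 16 and 17. These hold 11 of the 49 genes, of which 10 were tested, 8 fell and 0 rose in edgeR (0 also at an unadjusted p under 0.05, in DESeq2 and in limma-voom). The 8 include SDR42E1 itself and HSD17B1. Of all tested genes 38.45% on chromosome 16 and 45.03% on chromosome 17 were lower. Such shares were not particular to these chromosomes, with 39.7% lower on chromosome 1, 45.8% on chromosome 10 and 39.8% on chromosome 13. On the other chromosomes 10 members rose and 9 fell of 35 tested (28.6% and 25.7%), beside 25.8% and 24.2% of 10838 tested genes placed outside chromosomes 16 and 17. This count was chosen after the values were seen.

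Genes of steroid metabolism had few reads in HaCaT cells, and those that passed, HSD17B1 with its direction set by the filter among them, were lower. Of 9 members 5 were tested, 3 fell, 0 rose and 2 did not pass in edgeR. Also at an unadjusted p under 0.05, in DESeq2 and in limma-voom, 0 were higher. The 3 that fell are 60.0% of those tested, beside 25.8% of all genes lower and 24.6% higher. HSD3B7 lies on chromosome 16, where 38.45% of all tested genes were lower. HSD17B1 and DHRS11 lie on chromosome 17, where 45.03% were lower. HSD11B2, which did not pass, is also on chromosome 16. HSD17B1 (chromosome 17, 42549214 to 42555213), which makes estradiol from estrone, was at 1.22, 1.16 and 1.70 CPM in control libraries and 0, 0.152 and 0.175 CPM in knockout libraries. Its 58 control counts against 4 knockout counts give a ratio of 12.1 after scaling (95% Clopper-Pearson interval 4.46 to 45.7, counting error only; adjusted p = 1.76e-05 in edgeR). HSD17B1 shares 1971 exon bases with an antisense gene, and the strand setting of the counting is unknown.

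DHRS11 (chromosome 17, 36591798 to 36600806), a reductase of keto-steroids and other carbonyls, was at 9.43, 10.6 and 12.1 CPM in control and 6.05, 6.68 and 6.03 CPM in knockout libraries, with no overlap (log2 fold change -0.77, SE 0.16, adjusted p = 8.05e-05 in edgeR). HSD3B7 (chromosome 16, 30985207 to 30989152), an enzyme of bile acid synthesis, was at 12.6, 9.43 and 10.6 CPM against 6.57, 8.20 and 6.03 CPM. The lowest control library exceeded the highest knockout library (log2 -0.64, SE 0.16, adjusted p = 0.000987 in edgeR), and HSD3B7 too shares exon bases (1613) with a gene on the other strand. The glucocorticoid enzymes gave no call. HSD11B2, which inactivates cortisol, had a log2 fold change of -0.57 (SE 0.28, adjusted p = 0.0931 in edgeR). HSD11B1, which makes cortisol from cortisone, had 0 counts in control and 2, 3 and 5 in knockout libraries, and was too low to be tested. With a floor of 3 counts put in place of the 0 control counts, the scaled ratio of knockout to control was 4.01. That value depends on the floor chosen, leaves out the counting error of the knockout counts and is not a measured fold change. HSD17B11, an androgen-oxidising enzyme of lipid droplets, stood at 0.00 (SE 0.20). HSD17B6 had 29 counts over the control and 15 over the knockout libraries, HSD17B14 had 2 and 3, and neither was tested.

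HSD17B2, which oxidises estradiol and testosterone, begins 23.5 kb from the edge of SDR42E1 and is its closest relative by position. It was near silent in both groups, with 5, 2 and 6 counts in control and 2, 3 and 3 in knockout libraries (ratio of control to knockout 1.35, 95% Clopper-Pearson interval 0.519 to 3.76), so no change was detectable at this depth.

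Among retinoid enzymes the genes that passed were higher. Of 8 members, all tested, 5 rose, 0 fell and 3 did not pass in edgeR, with a median log2 fold change of 0.23; 1 was lower at an unadjusted p under 0.05, and 0 were lower in DESeq2 and in limma-voom. The 5 are 62.5% of the group, beside 24.6% of all genes higher. SDR16C5, an epidermal retinol dehydrogenase, was at 6.33, 5.09 and 4.06 CPM in control and 7.868, 9.569 and 6.997 CPM in knockout libraries. The groups did not overlap, though the control libraries spread widely (log2 0.66, SE 0.19, adjusted p = 0.00328 in edgeR). RDH13, a mitochondrial retinal reductase, was at 17.2, 14.5 and 13.0 CPM against 19.4, 20.4 and 22.4 CPM (log2 0.47, SE 0.11, adjusted p = 0.000634 in edgeR). RDH14 was at 22.9, 19.7 and 19.6 CPM against 27.2, 27.5 and 24.4 CPM (log2 0.35, SE 0.10), and RDH11, a reductase of retinal in the endoplasmic reticulum, at 101.7, 103.4 and 107.9 CPM against 130.9, 119.8 and 117.9 CPM (log2 0.24, SE 0.06). In these 3 genes each knockout library was above each control library. RDH10, which makes retinal from retinol, was 31.1, 30.4 and 30.8 CPM against 38.9, 31.9 and 37.1 CPM. Its rise (log2 0.22, SE 0.09, adjusted p = 0.0296 in edgeR) did not pass in 6 of 13 alternatives, DESeq2 (adjusted p = 0.0810) and the fit without knockout replicate 1 (0.153) among them. DHRS3, which turns retinal back into retinol, had a log2 fold change of -0.14 (SE 0.07, adjusted p = 0.0761 in edgeR) and passed as lower with upper-quartile scaling (adjusted p = 0.0322) and without control replicate 1 (0.0327), while DHRS9 and DHRS4 had -0.31 and -0.05, neither past the threshold. Reads of DHRS4 may be shared with its near copy DHRS4L2, and those of RDH11 and RDH14 with readthrough genes that overlap them.

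RefSeq promoter sequence (GRCh38.p14) was at hand for 35 of the 49 genes, taking the first listed start of each, and 4 stretches are printed to set passing genes that rose (RDH11, RDH14) beside passing genes that fell (HSD17B8, BDH2). Each is the part of the 250 bases before the start that no GENCODE exon covers, 5′ to 3′ on the gene's strand. They are chr14:67695815-67696014 (minus) for RDH11, chr2:18560681-18560903 (minus) for RDH14, chr6:33204440-33204641 (plus) for HSD17B8 and chr4:103099884-103100084 (minus) for BDH2. Capitals mark a match, on either strand, to a motif of the search given next.
RDH11: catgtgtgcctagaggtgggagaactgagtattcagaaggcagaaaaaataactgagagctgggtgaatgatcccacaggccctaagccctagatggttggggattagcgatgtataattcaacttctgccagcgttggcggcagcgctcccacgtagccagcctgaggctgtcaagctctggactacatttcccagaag
RDH14: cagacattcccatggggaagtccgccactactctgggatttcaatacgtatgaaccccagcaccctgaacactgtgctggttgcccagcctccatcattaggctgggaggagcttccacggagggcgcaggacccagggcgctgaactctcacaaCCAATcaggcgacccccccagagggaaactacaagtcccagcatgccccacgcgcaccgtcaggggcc
HSD17B8: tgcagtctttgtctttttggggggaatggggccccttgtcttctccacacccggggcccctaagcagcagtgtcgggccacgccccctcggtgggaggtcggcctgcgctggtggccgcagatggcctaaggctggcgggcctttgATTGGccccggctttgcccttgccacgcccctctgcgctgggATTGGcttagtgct
BDH2: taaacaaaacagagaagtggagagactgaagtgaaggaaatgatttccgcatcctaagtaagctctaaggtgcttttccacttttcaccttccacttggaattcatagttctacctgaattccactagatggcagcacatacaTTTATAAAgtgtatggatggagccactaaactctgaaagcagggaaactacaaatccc
The RDH14 stretch holds 1 CCAAT box (letters CCAAT), the HSD17B8 stretch 2 on the other strand, and the BDH2 stretch 1 TATA box (letters TATAAA) overlapped by its match on the other strand, while RDH11 had no match outside its exons. Over the full 250 bases a CCAAT box was present in 11 of 35 SDR promoters (31.4%) and 33.0% of 27305 promoters, and a TATA box in 8.57% and 11.1%. The GC box (GGGCGG) was in 68.6% of SDR promoters and 42.3% of all. The 27305 promoters were not limited to genes expressed in these cells, as most members are, so these shares do not compare like sets. The CACGTG E-box was in 5.71% and 6.49%, TGANTCA, the AP-1 letters, in 0 of 35 and 6.60%, TGACGTCA in 2.86% and 1.77%, and AGGTCA, read by many nuclear receptors, in 5.71% and 12.1%. Of the 6 genes that rose and had a sequence 4 held a CCAAT box and 3 a GC box, and of the 12 that fell 3 and 9 did. These matches are letters in a window and do not show binding.

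Enzymes of fatty acid, sphingolipid and ketone body metabolism moved both ways, and the largest moves were falls. Of 14 members, all tested, 3 rose, 5 fell and 6 did not pass (median log2 fold change 0.07). That is 21.4% higher and 35.7% lower, beside 24.6% and 25.8% of all genes. DECR1, a mitochondrial reductase needed to oxidise polyunsaturated fatty acids, was at 50.4, 60.7 and 57.7 CPM in control and 33.8, 32.0 and 29.6 CPM in knockout libraries. All knockout libraries were well below all control libraries (log2 -0.82, SE 0.08, adjusted p = 7.08e-11 in edgeR). HSD17B8, a subunit of the ketoacyl reductase of mitochondrial fatty acid synthesis, was at 10.07, 10.99 and 11.69 CPM against 6.92, 6.38 and 6.73 CPM (log2 -0.71, SE 0.15, adjusted p = 0.000142 in edgeR). CBR4, its partner subunit, had a log2 fold change of 0.06 (SE 0.09) that did not pass. BDH2, a cytosolic hydroxybutyrate dehydrogenase, was at 6.40, 7.17 and 7.55 CPM against 3.804, 5.164 and 4.460 CPM, again without overlap (log2 -0.65, SE 0.19, adjusted p = 0.00413 in edgeR). It shares 397 exon bases with SLC9B2 on its own strand.

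The abundant genes HSD17B4 and HSDL2 fell by smaller steps. HSD17B4, the bifunctional enzyme of peroxisomal beta-oxidation, went from 221.6 ± 2.66 to 178.7 ± 10.1 CPM (SD, n = 3; log2 -0.31, SE 0.05) and HSDL2, a lipid-linked relative, from 126.5 ± 4.84 to 101.7 ± 3.72 CPM (log2 -0.31, SE 0.05). HSD17B12 and KDSR were higher. HSD17B12, the ketoacyl reductase of fatty acid elongation, rose from 138.8 ± 5.75 to 176.6 ± 18.3 CPM (log2 0.35, SE 0.06) and KDSR, which takes the second step of sphingolipid synthesis, from 61.1 ± 0.532 to 77.2 ± 2.07 CPM (log2 0.34, SE 0.06). FAR1, which makes fatty alcohols for ether lipids, had a log2 fold change of 0.16 (SE 0.05, adjusted p = 0.0158 in edgeR) with overlapping groups, and lost the call without knockout replicate 1 or 3 or control replicate 2 (adjusted p up to 0.104). Values that did not pass were 0.43 for PECR, 0.31 for DECR2, 0.13 for HSD17B10, 0.08 for BDH1 and 0.00 for FAR2.

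HPGD showed the largest change of any abundant member. HPGD (chromosome 4, 174490177 to 174523154), the enzyme that begins the breakdown of prostaglandins, was at 102.2, 107.3 and 107.3 CPM in control libraries and 19.97, 17.62 and 20.20 CPM in knockout libraries. The groups were far apart beside a spread of 2.97 and 1.43 CPM (SD, n = 3 each). The fall was 5.49-fold (log2 -2.46, SE 0.07, adjusted p = 8.56e-26 in edgeR), and ran from -2.49 to -2.39 over the 13 alternatives. Among the other 4 genes of carbonyl, prostaglandin and pterin chemistry, CBR3, a carbonyl reductase, fell (log2 -0.43, SE 0.13, adjusted p = 0.00749 in edgeR; 0.0742 without control replicate 2), whereas its neighbour and paralogue CBR1 had 0.11 (adjusted p = 0.0865 in edgeR). SPR and QDPR, which make and recycle the cofactor tetrahydrobiopterin, had 0.06 and -0.31 and did not pass.

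Of the 3 nucleotide sugar enzymes UGDH (chromosome 4, 39498755 to 39528311), which makes the glucuronic acid donor for glycosaminoglycans, fell. It was at 50.5, 58.6 and 60.8 CPM in control and 39.9, 36.5 and 42.6 CPM in knockout libraries, without overlap (log2 -0.52, SE 0.08, adjusted p = 9.58e-07 in edgeR). GMDS, for GDP-fucose, and UXS1, for UDP-xylose, had -0.27 and 0.22 and did not pass.

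**Figure D2:**
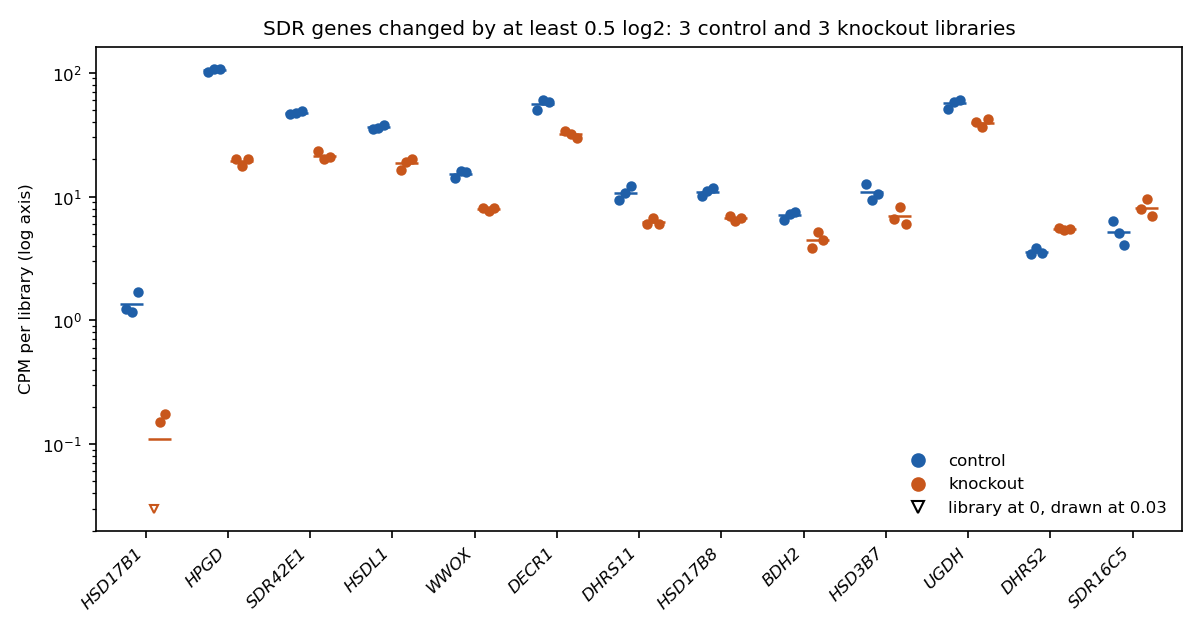
CPM on a log axis in each of the 6 libraries for the 13 members that passed with an absolute log2 fold change of at least 0.5; points are libraries and lines group means, and the knockout library with 0 counts of HSD17B1 is drawn at 0.03. Blue control and orange knockout points separate in all 13 genes, most widely in HSD17B1 and HPGD.

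The remaining 9 genes, of other or less known substrates, had 2 rises, 5 falls and 2 that did not pass. Rises were 22.2% and falls 55.6% of these, beside 24.6% and 25.8% of all genes. HSDL1 (chromosome 16, 84122146 to 84145192), a mitochondrial relative, was at 35.4, 35.7 and 37.7 CPM in control and 16.5, 19.1 and 20.1 CPM in knockout libraries (log2 -0.96, SE 0.09, adjusted p = 4.00e-11 in edgeR). WWOX (chromosome 16, 78099413 to 79212667), an oxidoreductase with WW domains that spans a fragile site, was at 14.03, 16.20 and 15.75 CPM against 8.13, 7.67 and 8.13 CPM (log2 -0.94, SE 0.13, adjusted p = 1.86e-07 in edgeR). Both genes were near 2-fold lower, and both lie on the long arm of chromosome 16. DHRS2, also called Hep27, was at 3.45, 3.82 and 3.49 CPM against 5.62, 5.32 and 5.42 CPM. It was higher in each knockout library (log2 0.60, SE 0.21, adjusted p = 0.0159 in edgeR), but did not pass in DESeq2 (adjusted p = 0.0569). DHRS7 was higher by 0.24, and DHRS1, DHRS13 and DHRS7B were at -0.40, -0.36 and -0.26. Each of these 4 passed, with an adjusted p of 0.0118 to 0.0399 in edgeR, and each lost the call under at least 2 of 13 alternatives. SDR39U1, which shares 2037 exon bases with KHNYN on the other strand, had 0.08, and DHRS12 0.16.

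Members on chromosomes 16 and 17 differed in how far they departed from the genes around them. For each member, the median log2 fold change was taken over the other tested genes within 5 Mb whose log2 CPM averaged at least 2. Around SDR42E1 it was -0.67, and 30 of 30 neighbours were below 0 (SD 0.39); SDR42E1 itself lay 0.50 lower than that median. HSDL1, 2.1 Mb away between gene midpoints, had neighbours at -0.65 (45 of 45 below 0) and WWOX, 3.3 Mb away on the other side, at -0.37 (24 of 26 below 0). HSDL1 differed from its median by -0.31 (SD 0.38) and WWOX by -0.58 (SD 0.34). In a window of 2 Mb WWOX had 1 neighbour and differed from it by -0.29. HSD11B2, 14.6 Mb away, had neighbours at -0.24. On the short arm the medians were 0.08 around HSD3B7 and 0.09 around DECR2, and 30 of the 71 neighbours of HSD3B7 were below 0. HSD3B7 differed from its median by -0.72 (SD 0.40) and DECR2 by 0.22 (SD 0.32).

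**Figure D3:**
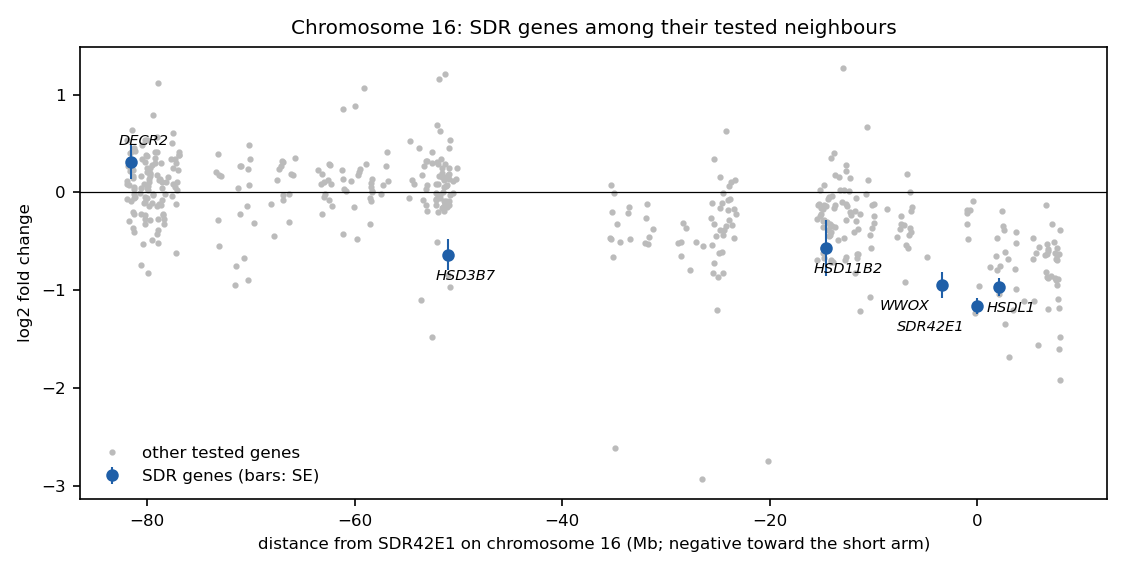
Log2 fold change (y axis) of tested genes on chromosome 16 by distance from SDR42E1 in Mb (x axis); grey points are other genes whose log2 CPM averaged at least 2, and blue points the 6 tested SDR genes with SE bars. WWOX, SDR42E1 and HSDL1 lie among neighbours that are nearly all below 0, and HSD3B7 among neighbours around 0.

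On chromosome 17 all 4 members fell. DHRS13 (neighbours -0.28) and DHRS7B (neighbours -0.30) differed from the genes around them by -0.08 and 0.03, less than the SD among those genes (0.25 and 0.33). DHRS11 (neighbours -0.61, 69 of 75 below 0) differed by -0.16 (SD 0.59), but by -0.44 in a window of 2 Mb, beyond the SD of 0.33 there, and by -0.41 in a window of 10 Mb (SD 0.62). HSD17B1 lay far lower than its neighbours, which were at -0.43 with an SD of 0.76. It entered the test through its control libraries alone, so its direction was set by the filter. Its mean log2 CPM of -0.11 is also under the limit of 2 set for neighbours, so the comparison is not like for like. Away from both chromosomes the falls of at least 0.5 stood among neighbours near 0. The median of neighbours was -0.08 for HPGD (13 genes), -0.04 for DECR1 (26), -0.00 for HSD17B8 (134), 0.06 for BDH2 (26) and -0.05 for UGDH (22). For the smaller falls it was 0.18 for HSD17B4 (-0.20 over 3 genes in a window of 2 Mb), 0.14 for HSDL2, -0.02 for CBR3 and 0.03 for DHRS1. Among the rises it was 0.10 for SDR16C5 (19), 0.03 for DHRS2 (65), 0.02 for RDH13 (109), 0.11 for RDH11 (44) and -0.12 for RDH14 (13). The other rises had neighbours at 0.12 for RDH10, -0.03 for HSD17B12, 0.18 for KDSR, 0.17 for FAR1 and 0.06 for DHRS7. In all, 7 members, HSD17B1 among them, lay at least 0.5 below their local median at 5 Mb and 2 at least 0.5 above. The same shares over all tested genes were not computed, so these counts have no background and are not read as a trait of the members. The part of position in the members' changes was not tested.

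**Figure D4:**
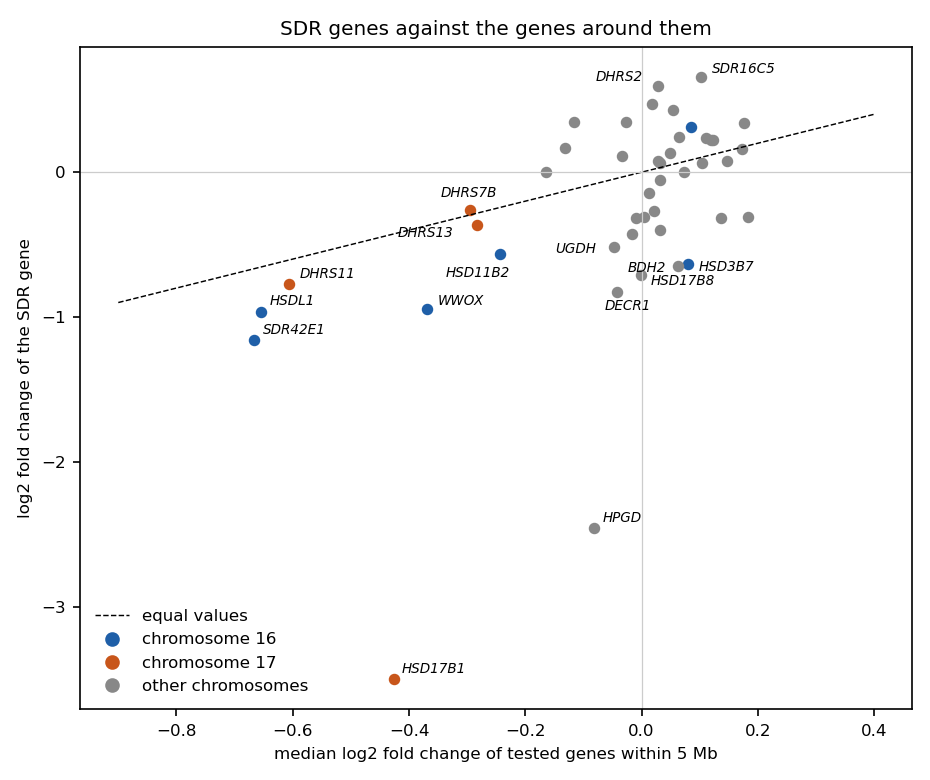
Log2 fold change of each tested SDR gene (y axis) against the median of tested genes within 5 Mb (x axis); the dashed line marks equal values and colours mark chromosomes 16 and 17. DHRS7B and DHRS13 lie close to the line, as DHRS11 does at this window only, while HPGD and HSD17B1 lie far below it. The direction of HSD17B1 was set by the count filter.

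Per length of exon sequence, the 49 genes were led by HSD17B10, a mitochondrial enzyme of isoleucine breakdown and transfer RNA processing, at 55.8 ± 1.32 CPM per kb in control and 61.1 ± 3.73 CPM per kb in knockout cells (SD, n = 3). CBR1, HSDL2 and SPR followed at 38.5 ± 0.233, 36.6 ± 1.40 and 34.1 ± 2.18 CPM per kb in control cells, of which HSDL2 and SPR differ by about their spread. SDR42E1 stood lower, at 4.01 ± 0.0853 CPM per kb in control and 1.79 ± 0.135 CPM per kb in knockout cells. HPGD had a control level of 19.1 ± 0.537 CPM per kb, close to RDH11 at 18.9 ± 0.581 and DHRS3 at 19.7 ± 1.35, and 3.48 ± 0.259 CPM per kb in the knockout. These lengths join all annotated exons of a gene, so a gene with long unused exons reads low.

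Family genes outside the 49 moved in both directions. A further list held 24 SDR genes under 25 symbols, all 24 in the table, of which 13 were tested, 2 rose, 4 fell and 7 did not pass. That is 15.4% higher and 30.8% lower, beside 24.6% and 25.8% of all genes. FASN, the fatty acid synthase, went from 172.6 ± 23.4 to 256.2 ± 13.4 CPM (log2 0.57, SE 0.10). MAT2B, a subunit of the S-adenosylmethionine synthase, and the biliverdin reductase BLVRB changed by -0.35 and -0.48, and HTATIP2 and DCXR by -0.32 and -0.39. The adjusted p of these 5 genes ran from 1.57e-06 to 0.00226 in edgeR. The steroid enzyme HSD3B1 had 1, 2 and 1 counts in control and 6, 0 and 1 in knockout libraries, and HSD3B2 had 0 in all 6.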

How the data were processed

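RNA of HaCaT cells was measured in 3 control and 3 SDR42E1-knockout libraries, made as stranded total RNA per the labels' protocols. The authors deposited raw read counts per gene in 1 table, whose 6 columns were assigned to libraries from their names. The genome build is GRCh38 per the submitters' processing notes; the sources used here give no aligner, counting tool or strand setting. The test was edgeR 4.0.16 under R 4.3.3: filterByExpr (minimum count 10, minimum total 15), TMM scaling, robust quasi-likelihood F test of knockout against control over all 6 libraries, two-sided, Benjamini-Hochberg adjusted over 12293 genes, threshold 0.05. It was also run on simulated data in which few genes changed. In the real data 50.4% passed, so that run does not check error control at such a share. SE was derived as |log2 fold change| / sqrt(F). Alternatives were DESeq2 1.42.0, limma-voom 3.58.1, RLE and upper-quartile scaling, other filters, a replicate block and leaving out each library. Positions and exon lengths came from GENCODE 29 (GRCh38), matched for 29918 rows; promoter sequence is RefSeq's. Members, lists and rules were chosen with earlier results of these data known. Every member could be named, with values by library for those that passed with an absolute log2 fold change of at least 0.5; RDH genes below that size were added after their values were seen. Of further SDR genes, up to 6 with the smallest adjusted p were to be named, of which 1 is not reported here; HSD3B1 and HSD3B2 were added after their values were seen. Pairs of libraries of 1 group were not duplicates (chi-square of 2.65 to 4.49 times its degrees of freedom).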

Additional observations from a re-analysis of the deposited data

How the results depend on the processing

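SDR42E1 stayed lower and past the threshold under all 13 alternatives run (log2 fold change -1.22 to -1.12). Members past the threshold numbered 27 in the edgeR result, 23 in DESeq2, 27 in limma-voom and 28 with RLE scaling or no filter; leaving out 1 library gave 22 to 27, with 7 to 10 higher and 14 to 17 lower. For all genes, knockout against control, 6197 passed, and 5308 in DESeq2. Without members on chromosomes 16 and 17, a count added after seeing the data, 9 fell in place of 17. Of 45 tested members 25 kept direction and side of the threshold; 8 calls, all with an absolute log2 fold change of at most 0.60, did not pass under at least 1 alternative, and 5 genes without a call gained one (DHRS3, GMDS, HSD17B10, PECR and UXS1). Signs turned in genes near 0 that never passed. With upper-quartile scaling, which moved the median of all genes to -0.03, the log2 fold change of HSD17B11 was -0.0272 and the log2 fold change of FAR2 was -0.0261. Leaving out 1 library gave -0.16 to 0.21 for HSD17B11, -0.12 to 0.030 for DHRS4, -0.019 to 0.13 for CBR4, -0.038 to 0.20 for BDH1, -0.22 to 0.20 for FAR2, -0.18 to 0.40 for SDR39U1, -0.17 to 0.38 for DHRS12, -0.23 to 0.20 for HSD11B1L and -0.087 to 0.080 for GFUS. Among the further SDR genes 1 rose in place of 2 in DESeq2 and with upper-quartile scaling, and 1 to 2 rose when 1 library was left out; the cause was not tested. The replicate numbers did not pair the libraries (correlations of deviations 0.02, -0.09 and -0.01; 0 of 6 libraries correlated best with their own number). With the replicate block 27 members passed, 10 higher and 17 lower, and 6425 genes in all. Windows of 2 and 10 Mb in place of 5 Mb gave 7 and 9 members at least 0.5 below their local median. The 7 at 2 Mb were not the same genes as at 5 Mb. WWOX, with 1 neighbour at 2 Mb, left the count (-0.58 at 5 Mb, -0.29 at 2 Mb). SDR42E1 entered it (-0.495 at 5 Mb, -0.69 at 2 Mb).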
